A study of Bos taurus with 28 samples.

Results

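The genes described here encode the subunits and assembly factors of respiratory complex I, measured in liver biopsies of ovariectomized, dry (non-lactating) Holstein cows. They are the genes whose symbol begins with NDUF followed by A, B, C, S, V, AB or AF, read from probe sets of the Affymetrix Bovine GeneChip that carry exactly 1 symbol. Of 24016 probe sets other than controls, 13292 carried exactly 1 symbol, and 57 of these belonged to 42 complex I genes. For a gene with several probe sets, the one with the highest log2 signal averaged over the 28 arrays was taken, which gave 6 core subunits, 32 accessory subunits and 4 assembly factors. All 42 chosen probe sets passed the filter on low signals. The assembly factors NDUFAF1, NDUFAF2, NDUFAF4 and NDUFAF7 were not analysed here.

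The 4 groups were estradiol from an ear implant (E2T), progesterone from a vaginal device (P4T), both devices together (E2P4T) and no hormone (CO), each for 14 days and each with 7 arrays of separate biopsies. All cows of all groups, CO included, had lost their ovaries, so CO stands for the absence of ovarian steroids and not for the intact animal. The study moved each cow through the treatments in turn as a Latin square, so that arrays of different groups share cows. The labels do not give the cow or the period of an array, and the tests below treat the arrays as separate.

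Complex I (NADH dehydrogenase) takes electrons from NADH, passes them through a flavin and a chain of iron-sulfur clusters to ubiquinone, and pumps protons across the inner mitochondrial membrane. Its core subunits carry the flavin, the clusters and the proton channels. Some of the core is encoded in mitochondrial DNA, and no probe set used here carried the symbol of one of those genes. The accessory subunits surround the core, hold its arms together and are needed for stable assembly. Assembly factors build the complex and are not part of the finished enzyme. In liver, complex I reoxidizes the NADH that arises from fatty acid oxidation and the citric acid cycle.

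The deposited values are MAS5 signal intensities on a linear scale, and all levels below are log2 of these signals. A difference of log2 levels is a log2 fold change. The signals of the arrays had been scaled to 1 trimmed mean (1000.2 to 1000.41), and precision is limited by having 7 arrays in a group. Over 19 hepatocyte marker genes, E2P4T replicate 5 had a mean log2 signal of 10.07 and was the lowest of the 28 arrays for 18 of them. P4T replicate 4 was at 15.62, and the other 26 arrays lay between 15.26 and 16.15. The same array was highest for 4 of 5 kidney genes (mean 10.40, against 3.97 to 7.80 in the other 26), and its profile therefore went against its liver label. P4T replicate 4 had 18 hybridisation spike controls at a mean log2 signal of 17.49 and a median signal of 439, while E2P4T replicate 5 had 18.44 and 512. The other arrays were between 13.18 and 16.45 for the spikes and between 178 and 322 for the median signal. The counts of members are therefore given with all 28 arrays and without these 2 (26 arrays). Some values of single genes and of classes are given for only 1 of these sets.

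Complex I genes as a whole stood apart on the same 2 arrays. The mean log2 signal of the 42 genes was 10.76 on P4T replicate 4, the lowest of all arrays, and 12.29 on E2P4T replicate 5, the highest. On P4T replicate 4, 24 of the 42 genes had their lowest signal of the 28 arrays, and on E2P4T replicate 5, 17 had their highest. On the other arrays the mean lay between 11.38 and 12.17 in E2T, 11.74 and 12.13 in P4T, 11.59 and 12.06 in E2P4T, and 11.27 and 12.12 in CO. The groups overlapped throughout, and in bulk tissue fewer cells of a type and less RNA per cell cannot be told apart.

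The accessory subunits averaged 12.16 ± 0.28 in E2T, 11.99 ± 0.57 in P4T, 12.18 ± 0.23 in E2P4T and 11.93 ± 0.35 in CO (mean log2 signal over 32 genes, SD, n = 7 each). Without the 2 arrays the P4T mean was 12.20 ± 0.13 and the E2P4T mean 12.14 ± 0.22 (SD, n = 6 each). The core subunits averaged 11.56 ± 0.26 in E2T, 11.47 ± 0.25 in P4T, 11.59 ± 0.33 in E2P4T and 11.50 ± 0.33 in CO. For the core the differences between groups were smaller than the spread within any of them. Within each array the accessory mean exceeded the core mean by 0.60 ± 0.15 for E2T, 0.66 ± 0.07 for P4T and 0.62 ± 0.13 for E2P4T over the 26 arrays, against 0.44 ± 0.22 in CO. Here 6 of the 7 CO arrays lay between 0.19 and 0.46, CO replicate 1 was at 0.87, and P4T replicate 4, left out of these means, was at -0.31. With all 28 arrays the difference was 0.52 ± 0.37 for P4T and 0.59 ± 0.15 for E2P4T.

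**Figure D1:**
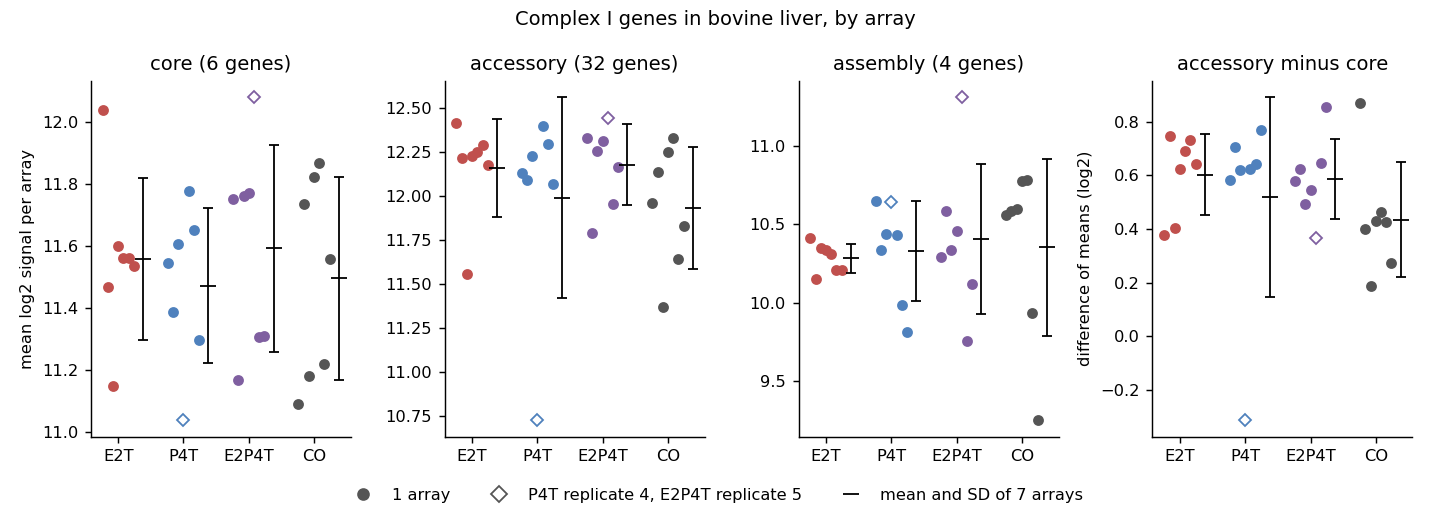
Mean log2 signal per array of the core, accessory and assembly genes of complex I, and the accessory mean minus the core mean, for E2T, P4T, E2P4T and CO. Each symbol is 1 array, open diamonds are P4T replicate 4 and E2P4T replicate 5, and bars are the mean and SD of 7 arrays; the accessory means of E2T (12.16) and E2P4T (12.18) lie above that of CO (11.93), and P4T replicate 4 lies lowest at 10.73.

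Most accessory subunits had higher mean signals in treated than in CO livers, with 27 of 32 above CO under E2T, 22 under P4T and 26 under E2P4T with 28 arrays. Of the 6 core subunits 5, 3 and 4 were above CO, and of the 4 assembly factors 1, 1 and 2. The highest single values were 1.63-fold for NDUFB6 in E2P4T with 28 arrays and 1.68-fold for NDUFB6 in P4T with 26 arrays. In E2T the highest was 1.57-fold for NDUFC1. No complex I gene passed the threshold of an adjusted p under 0.05 in limma in any contrast with CO, with 28 or with 26 arrays, and neither did any of the 18732 probe sets tested (0%). The lowest adjusted p of a member was 0.87 for E2T, 1.00 for P4T and 0.93 for E2P4T with 28 arrays, and 0.39, 0.59 and 0.49 with 26 arrays. The counts that follow are therefore of unadjusted p under 0.05 or of direction only, and are read beside the same counts over all probe sets.

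With 28 arrays, 4 of the 42 genes were higher at an unadjusted p under 0.05 in E2T than in CO, against 1.46% of all probe sets. In P4T the count was 0 of 42, against 0.945%, and in E2P4T it was 4 of 42, against 2.18%. No member was lower at this level in E2T, P4T or E2P4T, where 3.96%, 1.83% and 2.72% of all probe sets were. With 26 arrays, 9 of 42 were higher for E2T (3.03% of all probe sets), 11 for P4T (2.39%) and 7 for E2P4T (2.99%), and again none was lower (7.17%, 5.81% and 6.51%). With 28 arrays these were NDUFA1, NDUFB3, NDUFB6 and NDUFC1 in E2T and NDUFA1, NDUFB1, NDUFB3 and NDUFB6 in E2P4T. With 26 arrays NDUFA1, NDUFAB1, NDUFB1, NDUFB3, NDUFB4 and NDUFB6 were counted in all 3 contrasts, NDUFA2, NDUFA6 and NDUFC1 in E2T and P4T, NDUFA4 in P4T and E2P4T, and NDUFA12 in P4T. All of the genes counted were classed by symbol as accessory subunits, NDUFA4 among them. None was a core subunit or an assembly factor. Single arrays moved the counts, which are given here without the shares of all probe sets. Those shares can move as well. Without the 2 arrays the share higher rose from 1.46% to 3.03% for E2T, 0.945% to 2.39% for P4T and 2.18% to 2.99% for E2P4T. The P4T count was 10 without P4T replicate 4 and 1 without CO replicate 1. The E2T count was 9 without E2T replicate 3, 8 without P4T replicate 4, and 2 without CO replicate 3, CO replicate 7 or E2T replicate 6. The E2P4T count was 9 without P4T replicate 4, 7 without CO replicate 1 and 2 without E2P4T replicate 1. For no member did the arrays of a treatment and of CO fall into separate ranges. With 28 arrays 0.0214% of all probe sets were separate and higher for E2T, 0% for P4T and 0.0107% for E2P4T, and 0.0961%, 0.0214% and 0.0214% were separate and lower. With 26 arrays these shares were 0.0214%, 0.032% and 0.0214%, and 0.0961%, 0.128% and 0.117%.

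Complex I probe sets were bright, with 24 of the 42 above 90% of all probe sets by mean signal, and bright probe sets as a class leaned upward on the 26 arrays. Among the top 10% of probe sets by mean signal, 7.25% were higher at unadjusted p under 0.05 for E2T, 6.83% for P4T and 7.96% for E2P4T. The members' shares were 21.4%, 26.2% and 16.7%. Log2 fold changes were above 0 for 33 of 42 members for E2T (40.2% of all probe sets), 26 for P4T (46.3%) and 32 for E2P4T (48.3%) with 28 arrays. With 26 arrays the counts were 33 (40.2%), 32 (40.9%) and 29 (41.5%), and 63.5%, 65.6% and 64.4% of the top 10% of probe sets were above 0. The 3 contrasts share the CO arrays, so their counts are not independent of each other.

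Median log2 fold changes were highest for the accessory subunits. For the accessory subunits the median was 0.25 for E2T, 0.09 for P4T and 0.23 for E2P4T with 28 arrays, and 0.25, 0.31 and 0.20 with 26. For the core it was 0.12, 0.02 and 0.14, and 0.12, 0.08 and 0.03 with 26 arrays. For the 4 assembly factors it was -0.06, -0.12 and -0.00, and -0.06, -0.17 and -0.14 with 26 arrays. Over all probe sets the medians were -0.10, -0.03 and -0.02, and -0.10, -0.09 and -0.09 with 26 arrays. By letter with 26 arrays, the 14 NDUFA subunits had medians of 0.26 for E2T, 0.31 for P4T and 0.07 for E2P4T, the 11 NDUFB subunits 0.25, 0.30 and 0.20, and the 2 NDUFC subunits 0.38, 0.37 and 0.38. The 4 accessory subunits named NDUFS or NDUFV had medians of 0.13, 0.25 and 0.23. No test was run between classes.

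**Figure D2:**
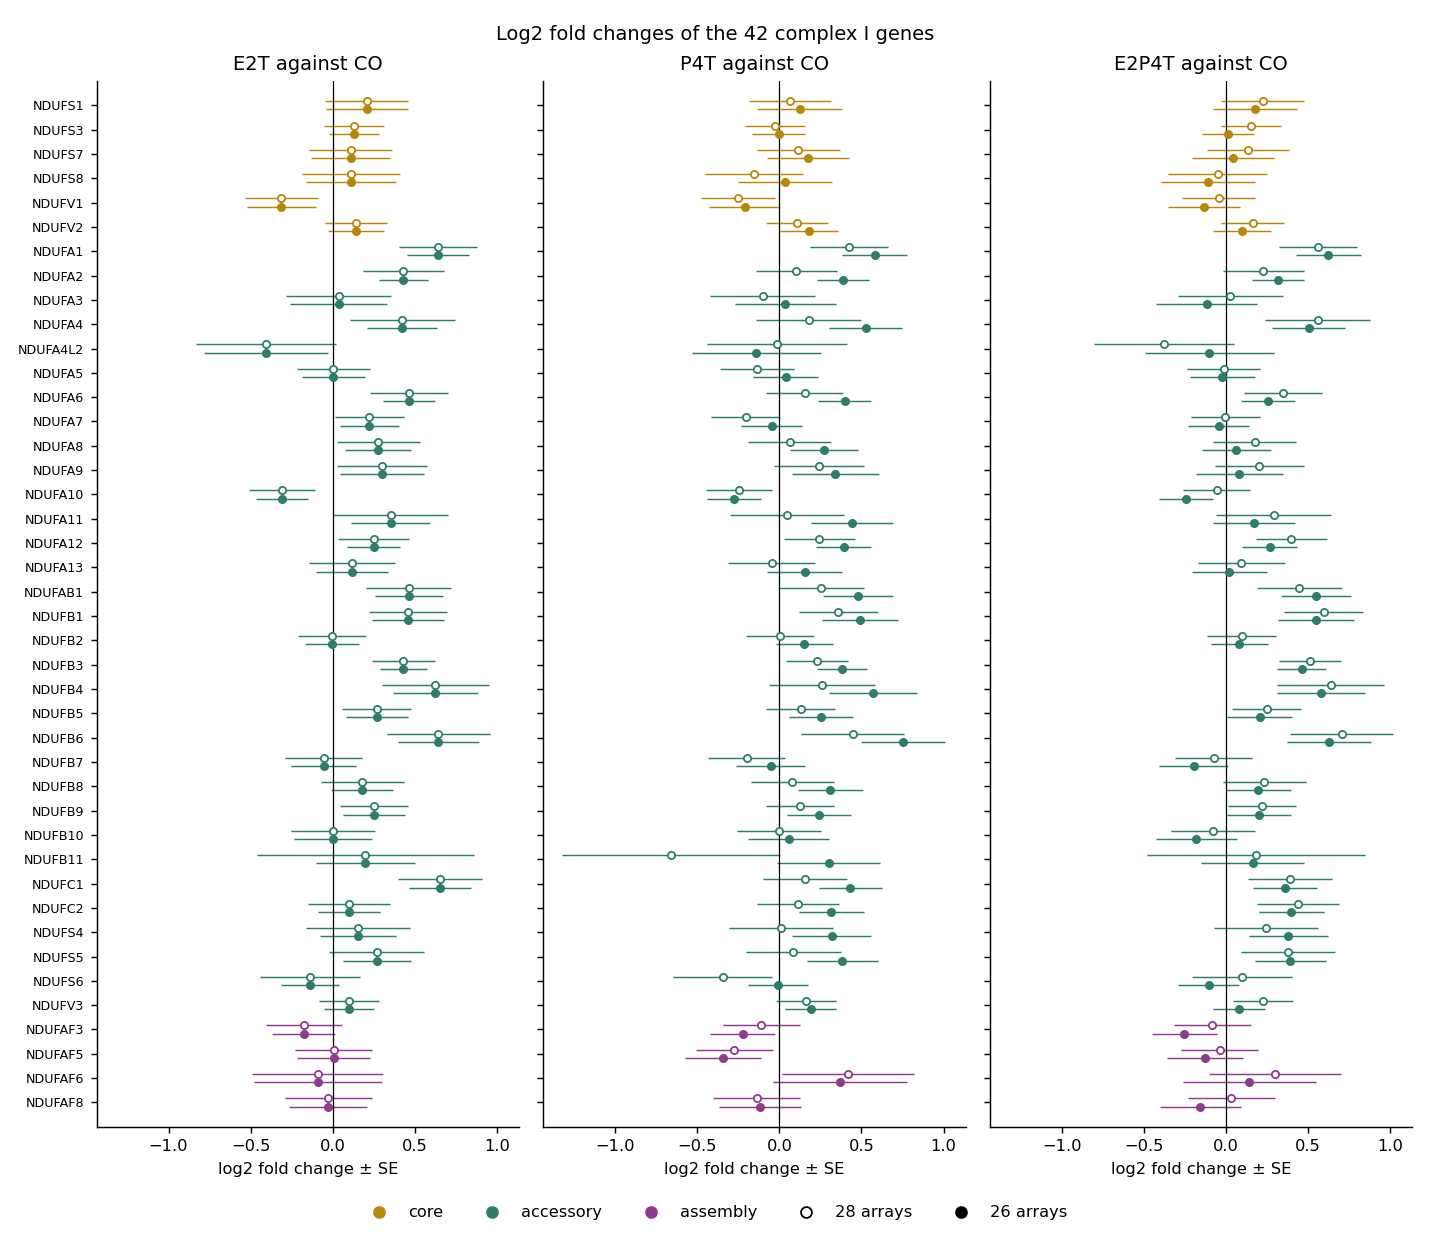
Log2 fold change and its standard error in limma for each of the 42 complex I genes in E2T, P4T and E2P4T against CO. Open symbols are 28 arrays, filled symbols 26 arrays, and colours mark core, accessory and assembly genes; accessory genes extend furthest to the right (NDUFC1 at 0.65 in E2T, NDUFB6 at 0.75 in P4T with 26 arrays), and NDUFB11 in P4T moves to the right of 0 once P4T replicate 4 is left out.

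NDUFA1, a small membrane-arm subunit without which the complex is not assembled, had the lowest p of the F test over the treatments among the members with 26 arrays. Its log2 signal ran from 13.86 to 14.74 in E2T (median 14.58), 13.27 to 14.63 in P4T (median 14.30), 13.97 to 14.64 in E2P4T (median 14.32) and 13.12 to 14.75 in CO (median 13.63). All 7 E2T arrays, 6 of 7 P4T arrays and all 7 E2P4T arrays were above the CO mean of 13.78. The exception in P4T was replicate 4, and CO replicate 1 reached as high as the highest E2T array, so that the groups overlapped. The log2 fold change was 0.64 ± 0.24 for E2T (SE, 1.56-fold), 0.43 ± 0.24 for P4T and 0.56 ± 0.24 for E2P4T with 28 arrays. Without the 2 arrays it was 0.64 ± 0.19, 0.58 ± 0.20 and 0.62 ± 0.20, and the limma p of the contrasts were 0.0020, 0.0061 and 0.0035, with 0.39, 0.59 and 0.49 the lowest adjusted p of any member. In limma with 26 arrays NDUFA1 was the only member past the criteria of the study. These are a p under 0.01 in the F test and under 0.05 in the contrast, with a minimum fold. NDUFA1 was past them in each of the 3 contrasts. Over all probe sets the shares past them and higher were 0.224%, 0.16% and 0.214%, and 0.598%, 0.523% and 0.582% were lower. With 28 arrays no member was past them, against 0.0854%, 0.0641% and 0.0854% of all probe sets higher and 0.208%, 0.0908% and 0.0908% lower. The F test p was under 0.01 for 0 members with 28 arrays (0.336% of all probe sets) and for NDUFA1 alone with 26 (1.04%). The study applied its criteria to a mixed model with cow and period, which could not be run here. From that model it lists NDUFC1 and NDUFB6 among its upregulated genes.

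NDUFB3, an accessory subunit of the membrane arm, was the 1 member with an unadjusted F test p under 0.05 with 28 arrays (0.049), against 2.12% of all probe sets. Its log2 signal had a median of 13.01 in E2T (12.45 to 13.17), 12.85 in P4T (11.82 to 13.01), 13.07 in E2P4T (12.63 to 13.34) and 12.60 in CO (12.05 to 12.98). The 6 remaining P4T arrays lay within 12.82 to 13.01. Its log2 fold change was 0.43 ± 0.19 for E2T, 0.23 ± 0.19 for P4T and 0.51 ± 0.19 for E2P4T, and 0.38 ± 0.15 in P4T and 0.46 ± 0.15 in E2P4T with 26 arrays. With 26 arrays 6 members had an F test p under 0.05, against 5.7% of all probe sets. These were NDUFA1 (0.0052), NDUFB3 (0.013), NDUFC1 (0.013), NDUFB6 (0.022), NDUFA6 (0.032) and NDUFA2 (0.035), and the lowest adjusted F test p among the members was 0.87 in limma.

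NDUFC1, a short accessory subunit of the membrane arm, had a median log2 signal of 12.00 in E2T (11.15 to 12.32), 11.84 in P4T (9.82 to 12.08), 11.89 in E2P4T (11.02 to 11.99) and 11.28 in CO (10.71 to 11.74). Of the treated arrays, 6 of 7 for E2T, 5 of 7 for P4T and 6 of 7 for E2P4T were above the CO mean. The log2 fold change of NDUFC1 was 0.65 ± 0.26 for E2T, 0.16 ± 0.26 for P4T and 0.39 ± 0.26 for E2P4T, and 0.65 ± 0.19, 0.43 ± 0.19 and 0.36 ± 0.19 with 26 arrays. The P4T value more than doubled without P4T replicate 4, which held the lowest NDUFC1 signal of all arrays.

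NDUFB6, an accessory subunit of the membrane arm, had a median of 11.58 in E2T (9.64 to 11.72), 11.36 in P4T (9.23 to 11.54), 11.38 in E2P4T (10.56 to 11.78) and 10.74 in CO (9.59 to 11.12). In each of E2T, P4T and CO 1 array lay far below the rest, at 9.64, 9.23 and 9.59, and the remaining 6 arrays of E2T and of P4T were between 11.06 and 11.72. The log2 fold change was 0.64 ± 0.31 for E2T, 0.45 ± 0.31 for P4T and 0.71 ± 0.31 for E2P4T, and 0.75 ± 0.26 in P4T and 0.63 ± 0.26 in E2P4T with 26 arrays. NDUFB4, another membrane-arm subunit, had medians of 12.16 in E2T, 11.92 in P4T, 12.20 in E2P4T and 11.64 in CO, with its lowest arrays at 10.65 in E2T, 9.80 in P4T and 9.99 in CO. Its log2 fold change was 0.62 ± 0.32 for E2T, 0.26 ± 0.32 for P4T and 0.64 ± 0.32 for E2P4T, and 0.57 ± 0.27 in P4T with 26 arrays (limma p 0.042, without adjustment).

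**Figure D3:**
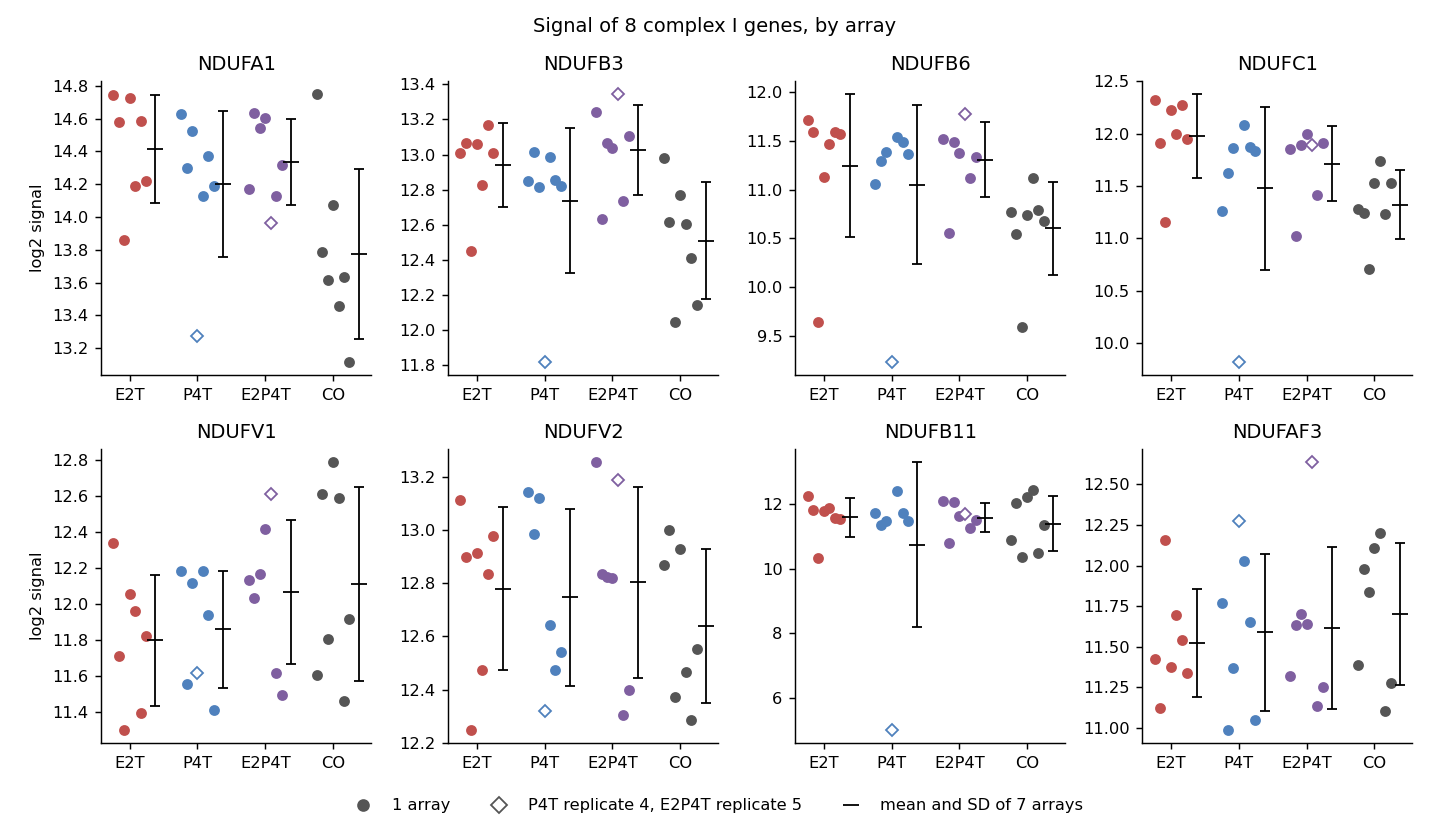
Log2 signal per array of 8 complex I genes in E2T, P4T, E2P4T and CO, with the mean and SD of 7 arrays. The upper row holds 4 accessory genes with high fold changes, the lower row 2 core genes, NDUFB11 and the assembly factor NDUFAF3; open diamonds are P4T replicate 4 and E2P4T replicate 5, and NDUFB11 on P4T replicate 4 is at 5.00.

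NDUFAB1 is the mitochondrial acyl carrier protein, which serves fatty acid and lipoate synthesis and also sits in complex I. Its median log2 signal was 11.58 in E2T, 11.53 in P4T, 11.64 in E2P4T and 11.07 in CO, and 6 of 7 arrays in each treated group were above the CO mean. The log2 fold change was 0.46 ± 0.26 for E2T, 0.25 ± 0.26 for P4T and 0.45 ± 0.26 for E2P4T, and 0.48 ± 0.21 in P4T and 0.55 ± 0.21 in E2P4T with 26 arrays (limma p 0.033 and 0.016, without adjustment). Among further accessory subunits, chosen after their values were seen, NDUFA2 and NDUFA6 of the matrix arm had log2 fold changes of 0.43 and 0.46 in E2T and, with 26 arrays, 0.39 and 0.40 in P4T and 0.32 and 0.25 in E2P4T. NDUFA12, a matrix-arm subunit, was higher by 0.39 ± 0.17 in P4T with 26 arrays. NDUFA4, which later work assigns to cytochrome c oxidase (complex IV), was higher by 0.53 ± 0.22 in P4T and 0.50 ± 0.22 in E2P4T with 26 arrays. NDUFA4 is a member here by its symbol only. The 15 accessory subunits not named elsewhere lay between -0.20 (NDUFA7 in P4T) and 0.44 (NDUFC2 in E2P4T) with 28 arrays, and between -0.20 (NDUFB7 in E2P4T) and 0.40 (NDUFC2 in E2P4T) with 26.

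Of the core subunits, NDUFV1 carries the flavin and binds NADH, and its log2 signal was 11.30 to 12.34 in E2T (median 11.82), 11.41 to 12.19 in P4T (median 11.94), 11.49 to 12.61 in E2P4T (median 12.13) and 11.46 to 12.79 in CO (median 11.92). Only 1 of 7 E2T arrays was above the CO mean, and the log2 fold change was -0.31 ± 0.22 for E2T, -0.25 ± 0.22 for P4T and -0.04 ± 0.22 for E2P4T. NDUFV2, which holds an iron-sulfur cluster beside the flavin, had log2 fold changes of 0.14 ± 0.19, 0.11 ± 0.19 and 0.16 ± 0.19 in the same order. NDUFS1, with several clusters of the electron path, had 0.21 ± 0.25 for E2T, 0.06 ± 0.25 for P4T and 0.22 ± 0.25 for E2P4T. The values of NDUFS3, NDUFS7 and NDUFS8, which form the part of the matrix arm that leads to ubiquinone, lay between -0.16 (NDUFS8 in P4T) and 0.15 (NDUFS3 in E2P4T). With 26 arrays all core values were between -0.31 and 0.21, and the unadjusted p in limma was above 0.05 in each.

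A few members had lower signals after treatment, none of them with an unadjusted p under 0.05. NDUFA10, an accessory subunit that resembles nucleoside kinases, was lower by 0.31 on the log2 scale for E2T (log2 fold change -0.31 ± 0.20), with -0.25 ± 0.20 for P4T and -0.06 ± 0.20 for E2P4T. None of the 7 P4T arrays and 1 of the 7 E2T arrays was above the CO mean of 11.46. E2P4T replicate 5 held the highest NDUFA10 signal at 12.52, and without the 2 arrays the E2P4T value was -0.24 ± 0.17. With the 2 arrays out and each array centred on its median signal, the P4T values of NDUFA10 and NDUFV1 were 0.0027 and 0.067. NDUFA4L2, a paralogue of NDUFA4 that is induced in low oxygen in other species, had log2 fold changes of -0.41 ± 0.43, -0.02 ± 0.43 and -0.38 ± 0.43, with signals spread from 5.68 to 8.80. NDUFS6, a zinc-binding matrix-arm subunit, had -0.14 ± 0.30 for E2T, -0.34 ± 0.30 for P4T and 0.10 ± 0.30 for E2P4T. The P4T and E2P4T values of NDUFS6 rested on the 2 arrays (8.84 and 12.51) and were -0.01 ± 0.18 and -0.10 ± 0.18 without them.

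NDUFB11, an accessory subunit of the membrane arm, gave the lowest fold change of all members, -0.66 ± 0.66 in P4T, which rested on 1 array. P4T replicate 4 was at 5.00, while the other 6 P4T arrays were between 11.35 and 12.42, and without that array and E2P4T replicate 5 the log2 fold change was 0.30 ± 0.31. NDUFA11, another membrane-arm subunit, was at 7.82 on the same array and between 10.35 and 10.88 on the other 6 P4T arrays, with a log2 fold change of 0.05 ± 0.35 in P4T and 0.44 ± 0.25 without the 2 arrays. NDUFB10, also of the membrane arm, had log2 fold changes near 0, at 0.0013 ± 0.26 for E2T, -0.0046 ± 0.26 for P4T and -0.08 ± 0.26 for E2P4T.

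The assembly factors had no value with an unadjusted p under 0.05. NDUFAF3, which acts early in building the ubiquinone-binding part, had log2 fold changes of -0.18 ± 0.23 for E2T, -0.11 ± 0.23 for P4T and -0.08 ± 0.23 for E2P4T. NDUFAF5, which hydroxylates NDUFS7, had 0.01 ± 0.23, -0.28 ± 0.23 and -0.04 ± 0.23. NDUFAF6, needed for the membrane subunits in early assembly, had a wide spread in CO (5.47 to 8.96) and log2 fold changes of -0.09 ± 0.40, 0.42 ± 0.40 and 0.30 ± 0.40. The fourth factor, NDUFAF8, a partner of NDUFAF5, was between -0.14 and 0.03. All intervals of 1 standard error of NDUFAF8 included 0.

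For 12 genes the array held more than 1 probe set, and in 4 of them a probe set that was not chosen had the opposite sign in all 3 contrasts with CO. NDUFB1, a small membrane-arm subunit, had the widest gap. Its chosen probe set (mean log2 signal 10.78) had log2 fold changes of 0.46 ± 0.24 for E2T, 0.36 ± 0.24 for P4T and 0.60 ± 0.24 for E2P4T. The other (mean 7.35) had -0.52 ± 0.44, -1.11 ± 0.44 and -0.71 ± 0.44, and with 26 arrays -1.23 ± 0.39 in P4T (limma p 0.0037, without adjustment). The direction of NDUFB1 therefore depends on the probe set. For NDUFS1, which has 3 probe sets, 1 that was not chosen had -0.33 ± 0.26, -0.42 ± 0.26 and -0.01 ± 0.26. The other probe set had -0.08 ± 0.51, -0.24 ± 0.51 and -0.42 ± 0.51 for NDUFAB1, and -0.03 ± 0.70, -0.17 ± 0.70 and -0.18 ± 0.70 for NDUFA11. NDUFA1, NDUFB3, NDUFB4, NDUFB6 and NDUFC1 have 1 probe set each.

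The treatments were also compared with each other. No member reached an unadjusted p under 0.05 in limma in E2P4T against E2T, in E2P4T against P4T or in E2T against P4T, with 28 or 26 arrays, and the adjusted count was 0. With 28 arrays 1.66% of all probe sets were higher and 0.379% lower at this level in E2P4T against E2T, 1.13% and 0.817% in E2P4T against P4T, and 0.363% and 1.08% in E2T against P4T. With 26 arrays the shares were 0.758% and 0.801%, 0.683% and 0.694%, and 0.827% and 0.785%. Members above 0 numbered 23 of 42 in E2P4T against E2T (59.8% of all probe sets), 38 in E2P4T against P4T (52.7%) and 33 in E2T against P4T (42.3%) with 28 arrays, and 15 (52.2%), 15 (50.3%) and 16 (48.4%) with 26. With 28 arrays the median log2 fold change of the members was 0.02 for E2P4T against E2T, 0.16 for E2P4T against P4T and 0.14 for E2T against P4T. With 26 arrays the medians were -0.04, -0.07 and -0.04. Without P4T replicate 4 alone, the median was -0.02 for E2P4T against P4T and -0.04 for E2T against P4T. For NDUFC1 the log2 fold change of E2P4T against E2T was -0.26 ± 0.26, and -0.29 ± 0.19 with 26 arrays.

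The interaction of E2 and P4 is the E2P4T effect less the sum of the E2T and P4T effects, so it is negative where the combination adds less than both hormones apart. With 28 arrays its median over the members was -0.03, 58.4% of all probe sets were above 0, and 0 members had an unadjusted p under 0.05 in limma, against 2.41% of all probe sets positive and 0.582% negative. With 26 arrays it was below 0 for 36 of 42 members, with a median of -0.24, while 57.9% of all probe sets were above 0 with a median of 0.09. Here 5 members were negative at an unadjusted p under 0.05, against 1.06% of all probe sets, and none was positive, against 2.94%. These were NDUFA1 (-0.60 ± 0.28), NDUFA2 (-0.50 ± 0.22), NDUFA6 (-0.61 ± 0.23), NDUFB6 (-0.76 ± 0.36) and NDUFC1 (-0.73 ± 0.27), and the adjusted p in limma was 0.98 for each. The CO arrays also enter the interaction, with a sign opposite to theirs in the contrasts with CO. Its values are therefore not independent of those contrasts.

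Other genes of complex I biology were taken from lists set by name, and those named here were chosen after their values were seen. Of 8 further assembly factors on the array, 0 were higher at an unadjusted p under 0.05 in any contrast with CO, and FOXRED1, a flavoprotein needed for complex I, had a log2 fold change of -0.67 ± 0.27 in E2P4T with 28 arrays (limma p 0.017, without adjustment). With 26 arrays FOXRED1 was at -0.39 ± 0.19 for E2T, -0.23 ± 0.19 for P4T and -0.37 ± 0.19 for E2P4T. TMEM126A, a membrane-arm assembly factor, had 0.49 ± 0.29, 0.26 ± 0.29 and 0.49 ± 0.29 with 28 arrays. Of 7 regulators of mitochondrial genes on the array, none passed with 28 arrays. PPARGC1A, a coactivator of mitochondrial biogenesis, had log2 fold changes of 0.09 ± 0.32 for E2T, 0.04 ± 0.32 for P4T and 0.43 ± 0.32 for E2P4T, and 0.02 ± 0.19 in E2P4T with 26 arrays. YY1, a transcription factor that acts with PPARGC1A in other species, was higher by 0.72 ± 0.26 in E2P4T with 26 arrays (limma p 0.010, without adjustment), and POLRMT, the mitochondrial RNA polymerase, had -1.54 ± 0.74 in P4T (limma p 0.046, without adjustment).

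Group medians or means of other array measures also differed between CO and the treated groups. Without the 2 arrays the median signal had a group median of 187 in E2T, 196 in P4T, 203 in E2P4T and 227 in CO, and the spike controls 13.96, 13.93, 14.11 and 14.43 on the log2 scale. The log2 signal of the 3′ over the 5′ probe set of GAPDH, a sign of RNA length, had a median of 4.36 in E2T, 4.38 in P4T, 3.91 in E2P4T and 6.12 in CO. The mean of the 19 hepatocyte genes was 15.61 ± 0.20 in E2T, 15.61 ± 0.29 in P4T, 15.60 ± 0.32 in E2P4T and 15.94 ± 0.16 in CO (SD), so that this mean was lower in each treated group than in CO, while most complex I genes were higher. This difference was not tested. On the 26 arrays the mean of 7 Kupffer cell genes ran from 10.58 to 11.99 in E2T, 11.53 to 12.04 in P4T, 11.28 to 12.06 in E2P4T and 10.76 to 12.26 in CO. The 3 arrays lowest in complex I had high spikes and medians. CO replicate 3 had a complex I mean of 11.27 with spikes at 16.45 and a median signal of 322, E2T replicate 3 had 11.38 with 15.64 and 299, and P4T replicate 4 had 10.76 with 17.49 and 439. The GAPDH value was 7.28, 6.45 and 8.48 on these 3 arrays. The next lowest, CO replicate 6 at 11.42, had spikes at 14.59, a median signal of 219 and a GAPDH value of 2.31. The part of these measures in the results was not tested.

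**Figure D4:**
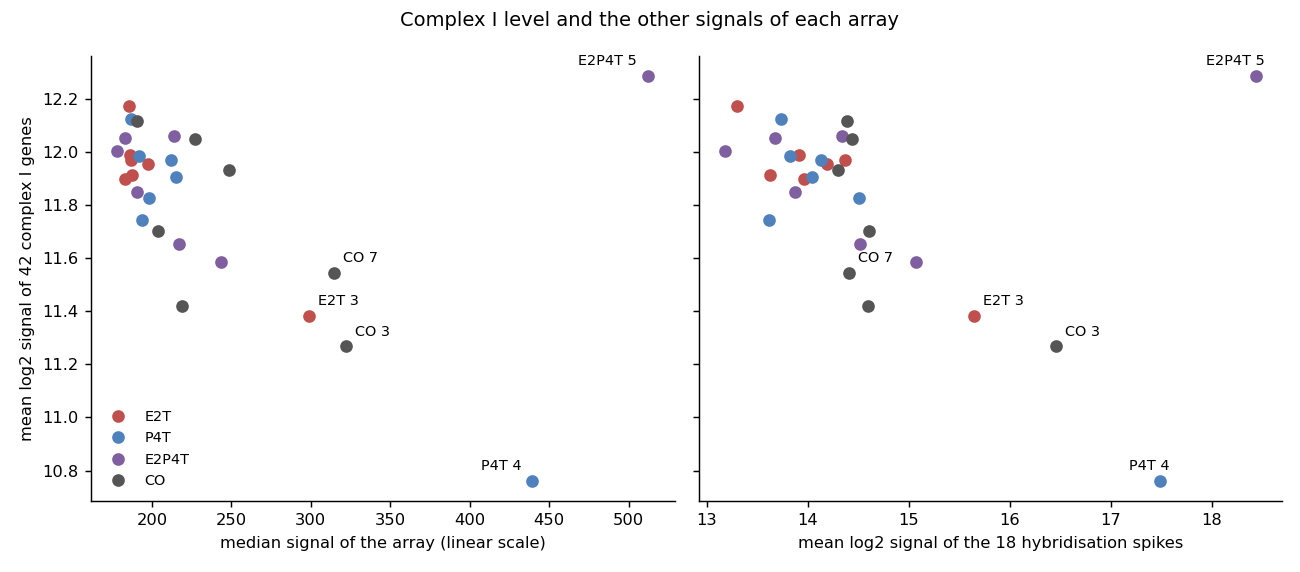
Mean log2 signal of the 42 complex I genes on each array against the median signal of the array (left, linear scale) and against the mean log2 signal of 18 hybridisation spikes (right), with E2T, P4T, E2P4T and CO in colours. CO replicate 3, E2T replicate 3 and P4T replicate 4 combine high medians with complex I means of 11.27, 11.38 and 10.76, and E2P4T replicate 5 combines the highest median with the highest complex I mean of 12.29.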

How the data were processed

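The 28 arrays hold mRNA of liver biopsies, captured on oligo(dT) beads. The authors deposited linear MAS5 signal intensities, which had been brought to a shared trimmed mean before deposit. Genes were named from the platform annotation through probe sets that list a single symbol. The members and gene lists were chosen with earlier results of these data known.

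Signals were set on a log2 scale with no further scaling. After removal of 112 controls, probe sets were ranked by their maximum over the arrays and the top 78% were tested (18732, lowest maximum 351.9). R 4.3.3 and limma 3.58.1 (lmFit, eBayes with a trend) fitted 1 mean per group over all arrays, with Benjamini-Hochberg adjustment over every probe set tested. The mixed model of the study could not be run without cow and period, so p-values measure the spread between arrays. Replicate numbers were checked as pairs over 42 same-number pairs (correlations of deviations -0.21 to 0.32, median 0.037, 14 over 0.1). The median over pairs of other numbers was 0.0031. The check did not decide whether the numbers pair the arrays, and the main fit did not use them.

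Named genes were the core subunits among the members, NDUFC1 and NDUFB6, the 3 highest and 3 lowest fold changes per contrast with CO, members with an F test p under 0.05, those with the highest and lowest mean signal, and genes whose probe sets disagree in sign in all 3 contrasts. The alternatives were scaling, the filter, an offset of 50, array weights, the mean over probe sets, a replicate block and arrays left out. Sequences and coordinates were not used here.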

Additional observations from a re-analysis of the deposited data

Results flagged for a closer look

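An array was marked where it stood far from the nearest other relative to the range of its group of 7 arrays. This gave 27 marked values in 108 groups tested. Chance marks about 1 in 20 only for independent groups of genes chosen without their values. Here the groups share arrays, and some genes were named for extreme fold changes in these data, so that rate does not apply. Of the marked values, 12 lay on P4T replicate 4 and 3 on E2P4T replicate 5. All values are log2 signals.

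P4T replicate 4 was low for the mean of complex I (10.76), the accessory genes (10.73), the accessory minus core difference (-0.31), NDUFA1 (13.27), NDUFA11 (7.82), NDUFAB1 (9.96), NDUFB11 (5.00), NDUFB3 (11.82), NDUFB4 (9.80), NDUFB6 (9.23), NDUFC1 (9.82) and NDUFS6 (8.84). E2P4T replicate 5 was low for NDUFA4L2 (5.83) and high for NDUFAF3 (12.63) and NDUFS6 (12.51). E2P4T replicate 2 was low for NDUFS1 (9.91).

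E2T replicate 3 was low for the mean of complex I (11.38), the accessory genes (11.56), NDUFAF6 (6.89), NDUFB11 (10.34), NDUFB4 (10.65), NDUFB6 (9.64) and NDUFC1 (11.15). CO replicate 3 was low for NDUFB4 (9.99) and NDUFB6 (9.59), CO replicate 7 was low for NDUFAF6 (5.47), and CO replicate 1 was high for the accessory minus core difference (0.87).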

How the results depend on the processing

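No member passed an adjusted p under 0.05 under any alternative run, and the counts at unadjusted p under 0.05 depended on the arrays. The counts of members higher in E2T, P4T and E2P4T than in CO were 4, 0 and 4 with 28 arrays and 9, 11 and 7 without the 2 arrays. They were 2, 1 and 5 with quantile normalization, 4, 0 and 0 with median centring, 10, 3 and 9 with array weights, and 1 in P4T with the mean over the probe sets of a gene. Further settings were chosen after seeing the data. With both arrays out the counts were 8, 11 and 7 in the upper 50% of probe sets by mean signal, 10, 10 and 7 with quantile normalization, 12, 15 and 12 with median centring and 10, 13 and 10 with the replicate block. Without CO replicate 3 and E2T replicate 3 as well, they were 9, 6 and 6. Shares of all probe sets are not given beside these counts, and scaling moved all probe sets too. With both arrays out and median centring, 64.8%, 66.9% and 64.1% of all probe sets were above 0 in E2T, P4T and E2P4T. Without centring these shares were 40.2%, 40.9% and 41.5%. Members lower in E2T numbered 2 with array weights, and 1 without 4 arrays, with both arrays out and quantile normalization, and with both out and the block. Members lower in P4T numbered 1 with array weights and 1 with the mean over probe sets. Leaving out 1 array at a time, which left 6 in its group, gave 2 to 9 higher in E2T, 0 to 10 in P4T, 2 to 9 in E2P4T and 0 to 1 lower in E2T. The 1 lower in E2T arose without CO replicate 1. The median of the members ran from 0.10 to 0.29 in E2T, -0.04 to 0.25 in P4T and 0.12 to 0.28 in E2P4T. The replicate block with 28 arrays gave 6, 0 and 4 higher and changed no adjusted call. Of the 28 arrays, 11 correlated best with an array of their own replicate number. The median correlation was 0.037 for same-number pairs and 0.0031 for pairs of other numbers (0.058 and -0.012 with 26 arrays). Arrays of the same number were thus slightly more alike, and whether the numbers mark cows was not tested.

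The median of all probe sets against CO moved with scaling, to 0.17 in E2T, 0.09 in P4T and 0.04 in E2P4T with median centring, and to 0.03 in each with quantile normalization. Relative to these, the median of the members was higher by 0.26, 0.10 and 0.23 with no further scaling and with median centring, and by 0.12, 0.03 and 0.19 with quantile normalization. The split of all probe sets higher and lower at unadjusted p under 0.05 was 274 to 742 in E2T, 177 to 343 in P4T and 408 to 510 in E2P4T. It was 399 to 372, 345 to 254 and 590 to 493 with quantile normalization, and 709 to 345, 295 to 234 and 397 to 344 with median centring. The P4T median of the members was 0.53 with both arrays out and median centring, where that of all probe sets was 0.19. The members were higher than all probe sets by 0.34 there, and by 0.34 with both arrays out and no further scaling. Of 66 gene values, 29 changed sign under some alternative while within 1 standard error of 0. Beyond that, the signs that turned were NDUFA10 in P4T (0.0027), NDUFV1 in P4T (0.067) and NDUFS6 in P4T (0.27) with both arrays out and median centring, NDUFS6 in P4T (0.031) with both out and the block, NDUFAF6 in P4T when 1 array at a time was left out (-0.032 to 0.55, lowest without CO replicate 7), and NDUFB1 with the mean over probe sets (-0.031, -0.37 and -0.056). The cause was not tested.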
